A study of Mus musculus with 14 samples.

Results

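The macrophage genes described here are 10 genes that mark or equip macrophages: Csf1r, Adgre1, Lyz2, Cd68, Itgam, Mrc1, Cd163, C1qa, C1qb and C1qc. They were found by their symbols among the 55291 genes counted in bulk RNA-Seq of mouse esophagus, and all 10 were present in the counts of all 14 samples. The samples came from 9 wild type C57BL/6 mice without any named treatment. Peeled esophageal epithelium was sequenced from 5 aged mice (O1, O2, O3, OF5 and OM8) and 4 young mice (Y1, Y3, YF5 and YM4), and the stroma below it came from 5 of these mice, the aged O1, O2 and O3 and the young Y1 and Y3. Aged mice were at least 18 months old and young mice at most 4 months old according to the sample labels. The muscle was peeled away from the epithelium by hand, and the study's methods describe the sheets as enriched for epithelium, so tissue below the epithelium may remain on them.

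Macrophages are phagocytes that reside in nearly every tissue, where they clear dying cells and debris and respond to microbes and injury. Their survival depends on the receptor encoded by Csf1r, which binds the growth factors CSF1 and IL34, and their genes are switched on by transcription factors such as PU.1, the product of Spi1. In the wall of the gut most of them lie in the connective tissue and muscle, and the squamous epithelium of the esophagus harbours few phagocytes, largely Langerhans cells.

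The promoters of C1qb, C1qc, Lyz2 and Mrc1 are shown because each holds the letters AGGAAGT, the core of PU.1 binding sites, in the 250 bases upstream of its start site in RefSeq on GRCm38.p6. They are written 5′ to 3′ on the strand of the gene without the bases that lie inside the gene in GENCODE, and the match, ACTTCCT on this strand, is in capitals. The stretches are chr4:136886201-136886450 for C1qb, chr4:136893066-136893164 for C1qc and chr10:117282322-117282522 for Lyz2, all on the minus strand, and chr2:14229164-14229391 for Mrc1 on the plus strand.
C1qb: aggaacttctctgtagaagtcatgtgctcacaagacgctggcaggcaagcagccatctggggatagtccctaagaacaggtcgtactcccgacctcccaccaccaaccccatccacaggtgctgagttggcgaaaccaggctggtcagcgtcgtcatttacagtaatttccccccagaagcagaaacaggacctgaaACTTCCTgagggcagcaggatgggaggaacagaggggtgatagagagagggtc
C1qc: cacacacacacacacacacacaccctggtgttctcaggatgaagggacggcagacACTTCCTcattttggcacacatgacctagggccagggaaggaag
Lyz2: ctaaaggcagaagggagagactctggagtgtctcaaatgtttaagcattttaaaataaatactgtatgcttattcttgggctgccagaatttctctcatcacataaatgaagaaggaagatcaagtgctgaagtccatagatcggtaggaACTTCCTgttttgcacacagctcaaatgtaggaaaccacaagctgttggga
Mrc1: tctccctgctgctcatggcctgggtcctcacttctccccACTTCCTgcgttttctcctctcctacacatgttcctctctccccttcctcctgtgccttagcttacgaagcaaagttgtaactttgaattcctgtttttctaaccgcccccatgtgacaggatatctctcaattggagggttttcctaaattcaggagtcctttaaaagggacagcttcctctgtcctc
The first base of the match lay 53 bases upstream of the start of C1qb, 195 of C1qc, 100 of Lyz2 and 211 of Mrc1. Both strands were searched. A match was found in 4 of the 7 macrophage genes with a promoter in the RefSeq table (Cd68, Cd163 and Itgam had none) and in 7.69% of all 32851 promoters of the same length. Such a match is a description of the sequence and was not tied to binding. C1qa, Adgre1 and Csf1r were not part of this search.

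Depth was uneven among the samples. The epithelial samples of OF5, OM8, YF5 and YM4 had 1042394 to 1433857 counts in protein-coding genes, and 63.9% to 73.9% of all their counts fell on a ribosomal RNA gene (CT010467.1), whereas the other 5 epithelial samples and the 5 stromal samples had 6665526 to 11067320. The 10 macrophage genes together drew 145 to 309 counts per sample in those 4 mice, 1167 to 2420 in the other epithelial samples and 2525 to 8359 in stroma. By markers of epithelium and skeletal muscle the layers matched their labels. The summed level of 8 esophageal epithelium markers ran from 17003 to 54048 normalized counts in epithelium and from 45.9 to 448.7 in stroma. Stroma was rich in skeletal muscle, with Acta1, the skeletal muscle actin, at 7286 to 11282 normalized counts against 1.38 to 367 in epithelium. Markers of fibroblasts and smooth muscle overlapped between the layers. The sum of 6 fibroblast markers was 280 to 632 in epithelium and 415 to 1031 in stroma. For 5 smooth muscle markers it was 333 to 835 in epithelium and 303 to 2051 in stroma. How much tissue below the epithelium the sheets held was not tested. Normalized counts are CPM on a library size adjusted by TMM over the 14 samples.

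8 of the 10 macrophage genes were higher in stroma than in epithelium: Lyz2, C1qa, Csf1r, C1qb, Cd163, Adgre1, C1qc and Mrc1, with log2 fold changes of 1.02 to 2.04 (edgeR quasi-likelihood test, adjusted p-value under 0.05, 9 epithelial and 5 stromal samples). Cd68 and Itgam did not pass the test, and none was lower in stroma. Of all 16791 genes tested, 56.2% passed, 30.1% higher in stroma and 26.1% lower. The median log2 fold change was 1.33 over the 10 genes and 0.05 over all genes tested. In bulk tissue, more macrophages and more RNA of these genes per macrophage cannot be told apart. A plot of all samples shows 5 genes with every stromal point above every epithelial point and 5 genes whose layers overlap.

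**Figure D1:**
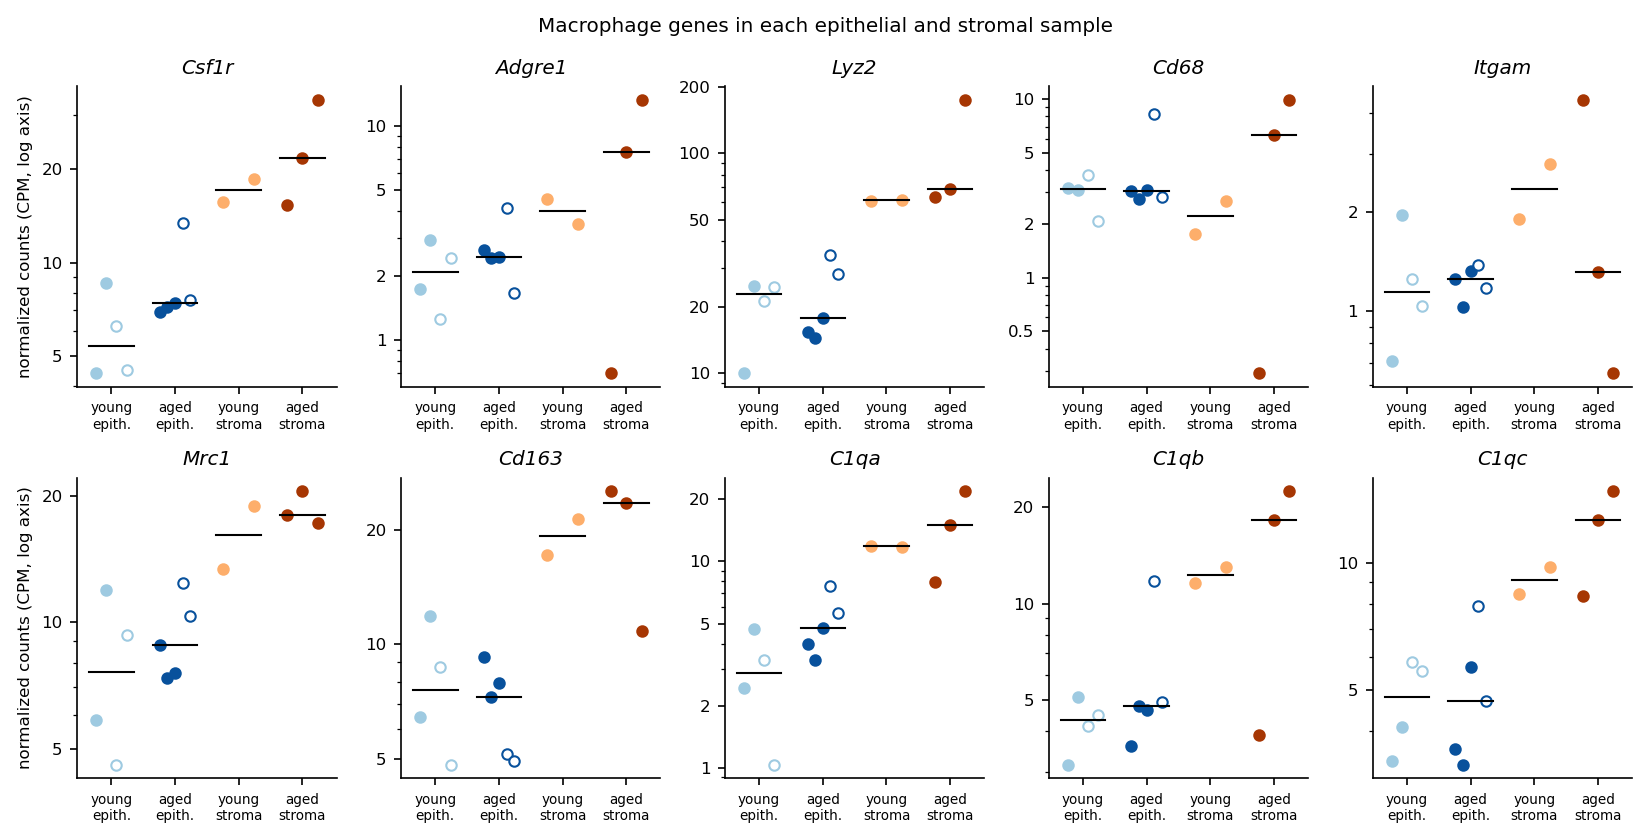
Normalized counts (CPM on TMM-adjusted library sizes, log axis) of the 10 macrophage genes in each sample, by age and layer. Each point is 1 sample, open points are the 4 epithelial samples with 1042394 to 1433857 protein-coding counts, and black bars are group medians. For Csf1r, Lyz2, Mrc1, C1qa and C1qc all 5 stromal samples lie above all 9 epithelial samples. The layers overlap for Adgre1, Cd68, Itgam, Cd163 and C1qb.

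Csf1r encodes the receptor tyrosine kinase on which macrophages depend (chromosome 18, 61100598 to 61132149 in GRCm38, plus strand). Its normalized counts were 15.7 and 18.6 in the stroma of Y1 and Y3 and 15.3, 21.8 and 33.6 in that of O1, O2 and O3. Epithelium ran from 4.39 to 13.4 with a median of 7.21, so that the layers did not overlap. Stroma exceeded epithelium by a log2 fold change of 1.53 ± 0.24 (SE), or 2.88-fold, with an adjusted p of 1.61e-05 in edgeR. A part of its exons, 15.1% of the bases, is shared with Hmgxb3 on the opposite strand, which was lower in stroma (7.27 to 11.8 normalized counts) than in epithelium (13.2 to 20.8). Whether the authors counted by strand is not given in the sources used here.

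Adgre1 encodes F4/80, the classical surface marker of mouse macrophages (chromosome 17, 57358691 to 57483527). Its normalized counts were 4.54 and 3.47 in the young stroma of Y1 and Y3, and 0.70, 7.56 and 13.3 in the aged stroma of O1, O2 and O3. Epithelium ran from 1.25 to 4.13 with a median of 2.42. The stroma of O1, with 12 counts, lay below every epithelial sample and that of O3 was the highest of all samples. The log2 fold change was 1.29 ± 0.43 with an adjusted p of 0.0154. Over the alternatives its adjusted p ran from 0.000435 to 0.264, and the call was lost when mice without stroma were left out (0.0661), with mouse as a block (0.264) and without mouse O2 (0.0528). It was also lost without mouse O3 (log2 fold change 0.76, adjusted p 0.148) or its stroma alone (0.76 and 0.119).

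Lyz2 encodes lysozyme, the enzyme that cuts bacterial cell walls and is made in bulk by macrophages, monocytes and neutrophils (chromosome 10, 117277331 to 117282321). It had the largest difference among the 10 genes. Stroma held 60.8 and 61.3 normalized counts in Y1 and Y3 and 63.1, 68.7 and 175 in O1, O2 and O3, and epithelium 10.02 to 34.5 with a median of 21.3. The layers were separate, and 4 of the 5 stromal samples lay close together while that of O3 stood apart. The log2 fold change was 2.04 ± 0.28, or 4.11-fold, with an adjusted p of 6.08e-06. Its neighbour and near copy Lyz1 was counted at 8.51 to 26.6 in stroma and 1.59 to 6.84 in epithelium, and reads may be divided between them.

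Cd68 encodes a glycoprotein of late endosomes and lysosomes (chromosome 11, 69664213 to 69666153). Its stromal samples held 1.75 and 2.68 normalized counts in Y1 and Y3, and 0.29, 6.29 and 9.91 in O1, O2 and O3, against 2.08 to 8.27 with a median of 3.11 in epithelium. The stromal samples thus lay on both sides of the epithelial range. Its log2 fold change was 0.28 ± 0.50 and the adjusted p 0.655. Its sign turned without the stroma of O3, where it was −0.30.

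Itgam encodes CD11b, the integrin chain of the complement receptor CR3, carried by monocytes, neutrophils and many macrophages (chromosome 7, 128062640 to 128118491). It was the member with the fewest reads, 3 to 75 counts per sample. Normalized counts were 1.91 and 2.80 in the stroma of Y1 and Y3, and 4.38, 1.31 and 0.65 in that of O1, O2 and O3, against 0.71 to 1.96 in epithelium with a median of 1.25. Its order among the aged stromal samples was the opposite of that of Adgre1 and Cd68. The log2 fold change was 0.82 ± 0.44 with an adjusted p of 0.116. Without the stroma of O3 it was 1.05 with an adjusted p of 0.0251, and without both layers of O3 1.07 with 0.038; over all alternatives the adjusted p ran from 0.0251 to 0.46. In GENCODE 68.7% of its exon bases belong also to Gm49368 on the same strand, which had 0 to 9 counts, and reads in the shared exons may have been left unassigned.

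Mrc1 and Cd163 encode scavenger receptors of tissue macrophages: the mannose receptor CD206, which binds glycans, and CD163, which takes up complexes of haptoglobin and hemoglobin. Both were higher in stroma. Mrc1 (chromosome 2, 14229392 to 14332057) held 13.4 and 18.9 normalized counts in the stroma of Y1 and Y3 and 18.0, 20.5 and 17.2 in that of O1, O2 and O3, the smallest ratio of highest to lowest among the 10 genes, against 4.58 to 12.4 in epithelium with a median of 8.84. Its log2 fold change was 1.02 ± 0.21 with an adjusted p of 0.000298 and no overlap between the layers.

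Cd163 (chromosome 6, 124304656 to 124330527) held 17.2 and 21.3 normalized counts in the stroma of Y1 and Y3, and 25.2, 23.5 and 10.8 in that of O1, O2 and O3. Epithelium ran from 4.85 to 11.9 with a median of 7.30. The stroma of O3, highest for most of the other genes, was the lowest stromal sample here and fell within the epithelial range. The log2 fold change was 1.37 ± 0.23 with an adjusted p of 3.97e-05.

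C1qa, C1qb and C1qc encode the 3 chains of C1q, the subunit that starts the classical complement pathway and tags debris for uptake. In most tissues C1q is made by macrophages rather than by the liver. The genes lie side by side on the minus strand of chromosome 4, C1qb at 136880129 to 136886187, C1qc at 136889804 to 136893065 and C1qa at 136895917 to 136898803. All 3 were higher in stroma, by log2 fold changes of 1.76 ± 0.30 for C1qa, 1.47 ± 0.33 for C1qb and 1.20 ± 0.24 for C1qc, with adjusted p-values of 4.39e-05, 0.000707 and 0.000249 in edgeR.

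C1qa held 11.9 and 11.7 normalized counts in the stroma of Y1 and Y3, 7.99, 15.0 and 21.9 in that of O1, O2 and O3, and 1.04 to 7.58 in epithelium with a median of 3.98. C1qb held 11.6 and 13 in the stroma of Y1 and Y3, 3.91, 18.2 and 22.4 in that of O1, O2 and O3, and 3.15 to 11.7 in epithelium with a median of 4.68. C1qc held 8.46 and 9.81 in the stroma of Y1 and Y3, 8.34, 12.7 and 14.8 in that of O1, O2 and O3, and 3.33 to 7.92 in epithelium with a median of 4.71. The layers were separate for C1qa and C1qc, and for C1qb the stroma of O1 fell among the epithelial samples and that of Y1, at 11.6, just below the epithelium of OF5, at 11.7. Of the normalized counts per kb of the 3 genes, C1qa made up 38.3% to 49.3% in stroma and 12.5% to 43.8% in epithelium, C1qb 23.0% to 44.3% and 36.4% to 51.7%, and C1qc 15.6% to 27.7% and 18.5% to 35.8%. The lowest share of C1qa rested on 3 counts.

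In all, 5 of the 10 genes (Csf1r, Lyz2, Mrc1, C1qa and C1qc) had every stromal sample above every epithelial sample, as had 16.9% of all genes tested.

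The levels of the genes can be compared with each other only per length, here as normalized counts per kb of exon. Lyz2 was the highest of the 10 in all 14 samples, with a median of 48.0 per kb in stroma (46.2 to 133) and 16.1 in epithelium (7.62 to 26.2). C1qb and C1qa followed in both layers, at medians of 11.9 and 11.5 in stroma and 4.30 and 3.83 in epithelium. The scavenger receptors and Csf1r were in the middle, at 2.83 to 3.90 in stroma and 1.25 to 1.39 in epithelium. Adgre1 had a median of 1.40 in stroma and 0.75 in epithelium, and Itgam was the lowest in 13 of the 14 samples, with medians of 0.38 and 0.25. Of the 9 pairs of neighbours in this order, only Lyz2 against C1qb and C1qa against C1qc had separate ranges in stroma, and no pair did in epithelium. Cd68 was the one whose place differed most: it stood above C1qc and Mrc1 in epithelium, with a median of 2.47, and below both in stroma, with 2.13.

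**Figure D2:**
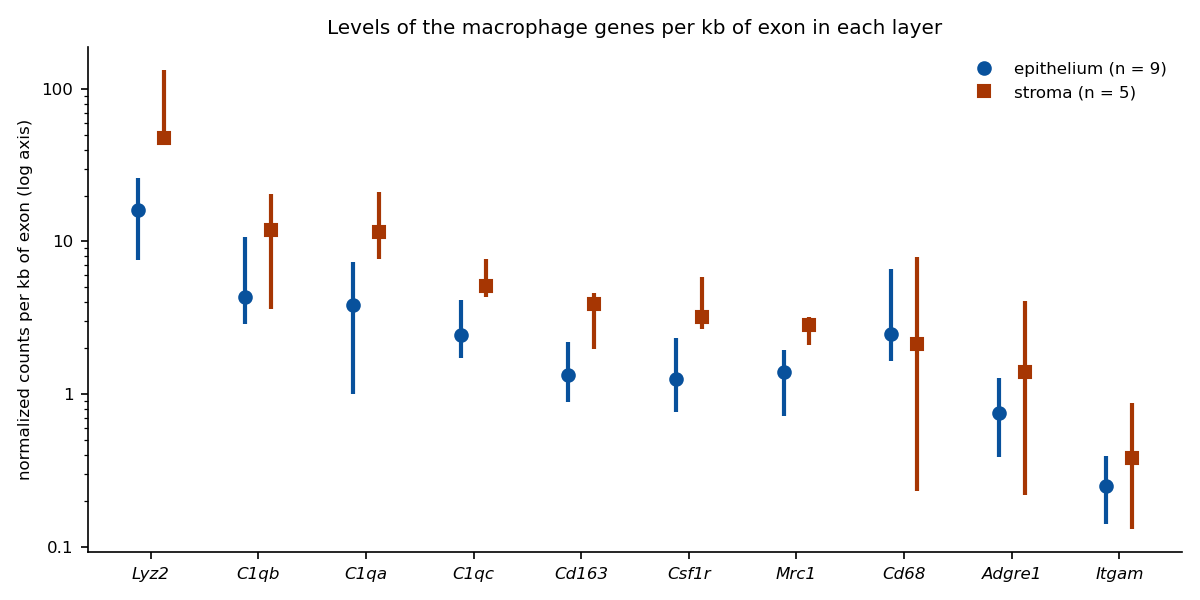
Normalized counts per kb of exon (log axis) of the 10 macrophage genes in epithelium (n = 9) and stroma (n = 5), ordered by the stromal median. Points are medians and lines run from the lowest to the highest sample, and Lyz2 is at the top and Itgam at the bottom in both layers.

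The 5 mice with both layers allow the same comparison within an animal. Csf1r, Lyz2, Mrc1, Cd163, C1qa, C1qb and C1qc were higher in the stroma than in the epithelium of the same mouse in 5 of 5 mice, Adgre1 and Itgam in 4 and Cd68 in 2. How many of all genes were higher in stroma in 5 of 5 mice was not counted, so these counts have no background. The log2 ratio of stroma over epithelium for Lyz2 ran from 1.30 to 3.29, for Mrc1 from 0.67 to 1.48 and for C1qc from 1.20 to 1.93. For Cd68 it ran from −3.39 in O1 to 1.67 in O3. O2 had all 10 genes higher in stroma, O3, Y1 and Y3 had 9, and O1 had 8. With mouse as a block in edgeR, 7 of the 10 genes were higher in stroma, all but Adgre1, Cd68 and Itgam, as were 24% of all 16713 genes tested.

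**Figure D3:**
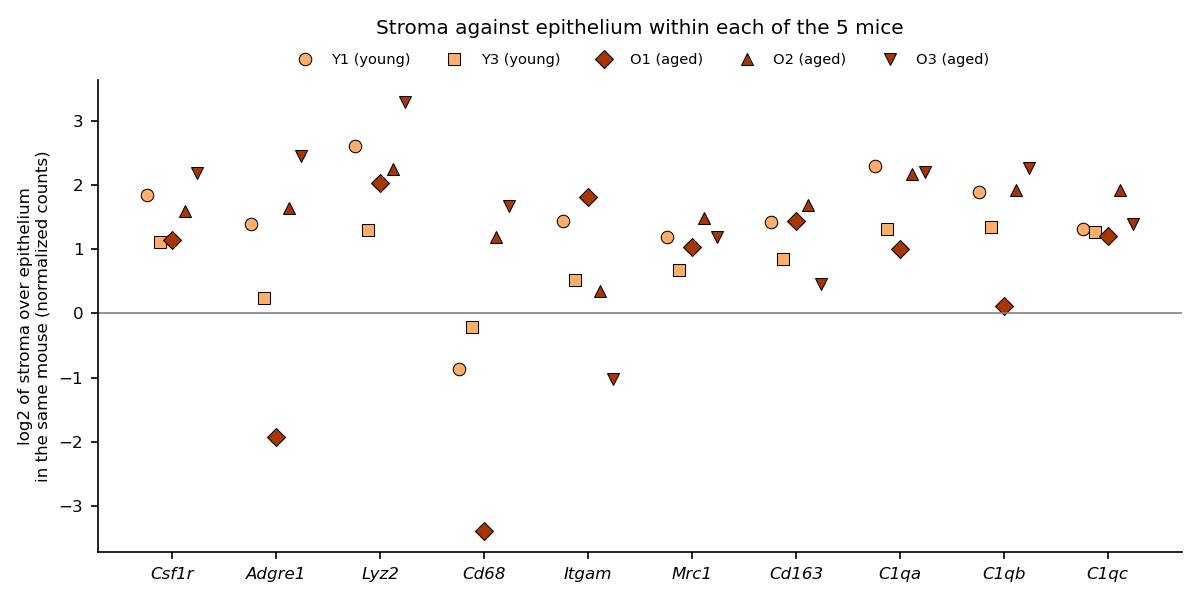
Log2 ratio of the normalized count in stroma over that in epithelium of the same mouse, for the 10 macrophage genes and the 5 mice with both layers. Each point is 1 mouse, points above 0 are higher in stroma, and O1 stands out below 0 for Cd68 and Adgre1 and O3 for Itgam.

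For Adgre1, Cd68 and Itgam the range of the 3 aged stromal samples enclosed that of the 9 epithelial samples. The stroma of O3 was the highest stromal sample for 7 of the 10 genes and the lowest for Cd163 and Itgam. The stroma of O1 was the lowest for 6 and the highest for Cd163 and Itgam. Other cell types differed between the same samples: the summed normalized counts of 9 pan-leukocyte and myeloid markers were 203 in the stroma of O3, 49.5 in that of O1 and 60.7 to 77.3 in the others. 4 B cell markers summed to 1209 in O3, 24.4 in O1 and 65.1 to 147 in the others, and 12 skeletal muscle markers to 42353 in O3, 76538 in O1 and 53190 to 67380 in the others. Their part in the levels of the macrophage genes was not tested. Without the stroma of O1, 8 of the 10 genes were still called, and without that of O3 also 8, with Itgam in place of Adgre1. Of all genes tested, 5301 of 17431 were called higher in stroma without the stroma of O1. Without that of O3 it was 5537 of 17560.

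Across both layers of these mice (10 samples), after centring on each layer, 7 of the genes followed the mean of the 10, with Pearson's r of 0.81 to 0.96 for C1qa, Csf1r, C1qb, Adgre1, Cd68, Lyz2 and C1qc. Mrc1 had an r of 0.53, Cd163 of −0.19 and Itgam of −0.49. Each gene is itself part of the mean, and the samples share mice and library depth. The genes outside the lists with the most similar pattern among 6783 candidates were Klf2, a transcription factor of endothelium and leukocytes, with r of 0.99, the secreted Angptl2 with 0.98, the protease inhibitor Timp2 with 0.98, the endocytic adaptor Dab2 with 0.96 and Serpinf1 with 0.95. These r values are descriptions over 10 samples.

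In aged against young epithelium none of the 10 macrophage genes passed the test, as against 0.0132% of the 15107 genes tested (2 genes, edgeR; 28 with DESeq2, none of them a macrophage gene), and none had an unadjusted p under 0.05, which 3.36% of all genes had. The share that passed was 0.00662% in each direction. None of the 10 had separate ages, against 0.887% of all genes higher and 0.404% lower in aged epithelium. The largest difference was that of C1qa. It held 1.04 to 4.71 normalized counts in the 4 young samples with a median of 2.89, and 3.33, 3.98, 4.76, 5.66 and 7.58 in the aged samples of O2, O1, O3, OM8 and OF5. This gave a log2 fold change of 0.52 ± 0.32, with an unadjusted p of 0.117 and an adjusted p of 0.999. Csf1r had 0.37 ± 0.25, from 4.39 to 8.60 in young and from 6.95 to 13.4 in aged epithelium.

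The other genes lay between −0.25 ± 0.22 for Cd163 and 0.31 ± 0.27 for C1qb, and the median of the 10 was 0.16. In the 4 samples of OF5, OM8, YF5 and YM4 alone C1qa had 1.64 and Csf1r 0.98, and in the other 5 samples 0.15 and 0.13, with none passing the test. The value of 1.64 for C1qa rested on 22 and 24 counts in OF5 and OM8 and 8 and 3 in YF5 and YM4. The epithelium of OF5 was the highest of the 9 epithelial samples for 8 of the 10 genes, with 106 normalized counts of the 10 genes together against 41.3 to 79.2 in the others. This sample rested on 309 counts of these genes. Pan-leukocyte and myeloid markers summed to 52.4 in OF5 and 17.6 to 32.3 in the other epithelial samples, and their part in the levels was not tested. Without OF5 none of the 10 genes passed the test either.

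In aged against young stroma none of the 10 genes passed the test, nor did any of the 21323 genes tested in edgeR (0%). With DESeq2 2 genes passed, neither of them a macrophage gene. In edgeR 776 genes (3.64%) had an unadjusted p under 0.05, none of them a macrophage gene. The log2 fold changes ran from −0.18 ± 1.04 for Itgam to 1.31 ± 1.09 for Cd68, with a median of 0.36, and the errors were wide with 3 aged and 2 young samples. Lyz2, at 63.1 to 175 in aged and 60.8 and 61.3 in young stroma, was the only member without overlap between the ages, which 6.57% of all genes showed in this direction. Its log2 fold change was 0.74 ± 0.42 with an unadjusted p of 0.111, and without O3 it was 0.075. Adgre1 had 0.85 ± 0.92, with the young samples at 3.47 and 4.54 lying between the aged samples at 0.70, 7.56 and 13.3. With each mouse left out it ran from 0.035 (without O3) to 1.38 (without O1), and Cd68 from 0.56 (without O3) to 1.87 (without O1).

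The signs of some stromal age differences depended on which mice entered the fit. Without O3 the log2 fold changes of C1qa and C1qb were −0.066 and −0.17 and that of Itgam was 0.22, and none passed the test. Markers of the esophageal epithelium summed to 53.2, 449 and 247 normalized counts in the stroma of O1, O2 and O3 and to 74.4 and 45.9 in that of Y1 and Y3. Their part in the age differences was not tested.

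**Figure D4:**
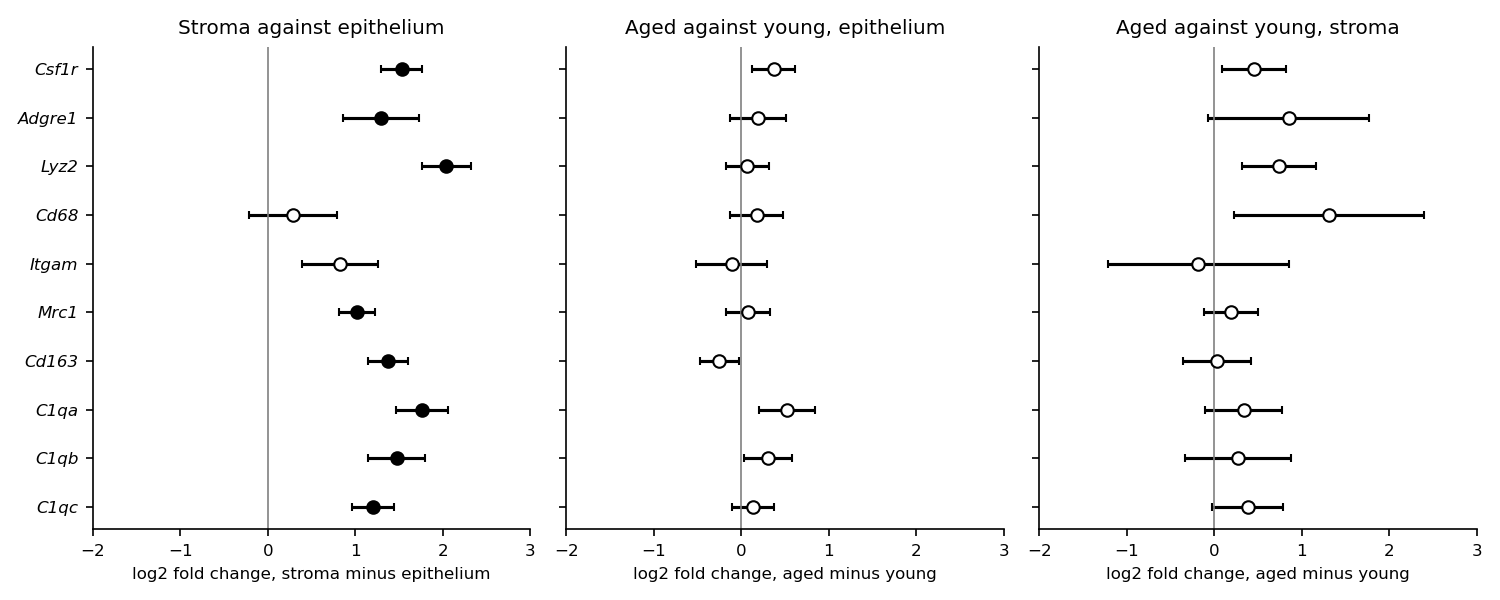
Log2 fold changes of the 10 macrophage genes in edgeR for stroma against epithelium, aged against young epithelium and aged against young stroma. Points are estimates, bars are 1 SE on each side, filled points have an adjusted p under 0.05, and only the comparison of the layers has filled points.

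The difference between the age effects in the layers was tested in the mice that have both (10 samples). None of the 10 genes passed, nor did any of the 22771 genes tested (0%) in edgeR, where 979 genes had an unadjusted p under 0.05 and 62 passed with DESeq2. The largest estimate was 1.40 ± 1.26 for Cd68 and the smallest −0.03 ± 1.16 for Itgam.

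Other genes of macrophage biology were examined as lists. Of the growth factors and their receptors, 3 of the 5 tested were higher in stroma and none was lower. Csf1, the main ligand of the receptor encoded by Csf1r, was at 13.1 to 19.9 normalized counts in stroma and 3.77 to 8.65 in epithelium (log2 fold change 1.38 ± 0.19, adjusted p 4.49e-06). Il34, the other ligand, known from the epidermis, was at 0 to 2.43 in stroma and 1.73 to 4.48 in epithelium, with a log2 fold change of −1.11 ± 0.57 and an adjusted p of 0.107. Csf2ra and Csf2rb, the chains of the GM-CSF receptor, were higher in stroma by 1.42 ± 0.44 and 2.0 ± 0.41.

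Of the transcription factors, Spi1 (1.52 ± 0.47), Irf8 (1.88 ± 0.47) and Nr1h3 (3.37 ± 0.34) were higher in stroma. Spi1, which encodes PU.1, was at 1.93 to 2.99 normalized counts in stroma and 0.39 to 3.10 in epithelium. Cebpa, known also from keratinocytes, was lower in stroma (−1.52 ± 0.26). Maf, Runx1 and Cebpb had log2 fold changes of 0.17, 0.12 and 0.04 and did not pass.

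Of the phagocytic receptors, 10 of 11 tested were higher in stroma and none was lower. Stab1, a scavenger receptor of macrophages and lymphatic endothelium, was at 25.9 to 38.0 normalized counts in stroma and 6.34 to 12.5 in epithelium (1.93 ± 0.18). Mertk, which binds dying cells, had 2.10 ± 0.36, and Cd36, which binds lipids and is made also by fat cells and capillaries, 2.63 ± 0.32. Tyrobp and Fcer1g, the adaptors that carry signals of such receptors, had 2.36 ± 0.50 and 1.46 ± 0.52.

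Of the complement genes beyond C1q, 8 of 10 tested were higher in stroma and none was lower. C3, the central component, was at 257 to 764 normalized counts in stroma and 39.2 to 127 in epithelium (2.69 ± 0.27), and C4b had 2.25 ± 0.31. C1ra and C1s1, the proteases that join C1q in the C1 complex and are made largely by fibroblasts, had 1.55 ± 0.23 and 1.23 ± 0.26. The receptors C3ar1 and C5ar1 had 0.59 ± 0.53 and 0.65 ± 0.54 and did not pass.

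Of the resident macrophage markers, 6 of 8 tested were higher in stroma and 1 was lower. Lyve1, shared with lymphatic endothelium, was at 17.7 to 23.5 normalized counts in stroma and 3.97 to 6.58 in epithelium (2.05 ± 0.17), F13a1 had 1.02 ± 0.21, Pf4 1.72 ± 0.36 and Timd4 2.26 ± 0.58. Cbr2 was lower in stroma (−1.43 ± 0.30). All 9 pan-leukocyte and myeloid markers were higher in stroma, from 0.83 ± 0.25 for Sirpa to 2.64 ± 0.69 for Aif1, and Ptprc, the general leukocyte gene for CD45, had 2.02 ± 0.44. Of the monocyte markers, 2 of 3 tested were higher, Ccr2 by 1.49 ± 0.49 and Fn1, made also by fibroblasts, by 0.92 ± 0.27.

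Of the markers of alternative activation, Mgl2 (1.65 ± 0.37) and Retnla (1.14 ± 0.32) were higher in stroma. Arg1, arginase 1, known from such macrophages and from stratified epithelium, was lower, at 0 to 1.5 normalized counts in stroma against 31.6 to 92.9 in epithelium (−6.56 ± 0.61). In aged epithelium and aged stroma no gene of these lists passed the test.

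**Figure D5:**
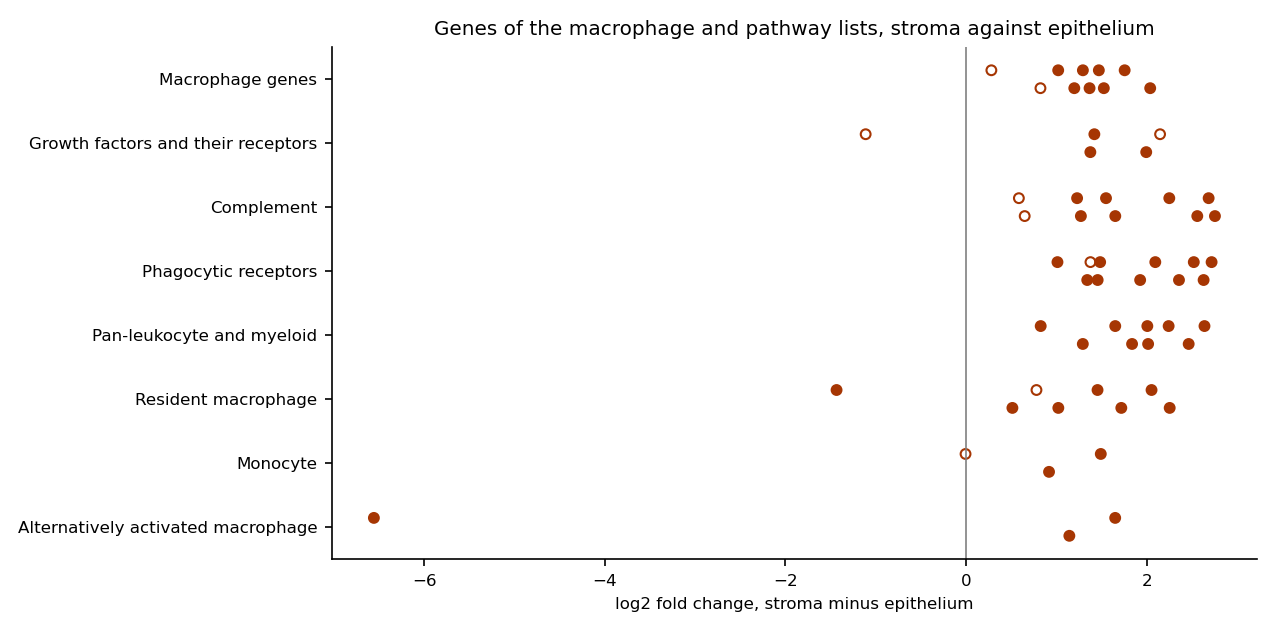
Log2 fold changes of stroma against epithelium in edgeR for the tested genes of 8 lists. Each point is 1 gene, filled points have an adjusted p under 0.05, most filled points lie to the right of 0, and Arg1 is the point at −6.56.

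Ptprc itself was higher in stroma by a log2 fold change of 2.02, and of the 10 macrophage genes only Lyz2 had a larger one, 2.04. Relative to Ptprc, 9 of the 10 genes had a lower median in stroma in the 5 mice with both layers, all but Lyz2. This largely restates the fold changes above. How many of all genes were lower in stroma relative to Ptprc was not counted, so the 9 have no background. In these 5 mice, the counts of Lyz2 per count of Ptprc were 4.33 to 8.53 in epithelium (median 7.20) and 4.96 to 14.1 in stroma (median 7.46). Those of Cd68 were 0.85 to 2.09 (median 1.25) and 0.065 to 0.73 (median 0.22), and those of Mrc1 2.47 to 4.09 (median 3.84) and 0.53 to 4.01 (median 1.64). The medians in epithelium and stroma were 1.01 and 0.41 for Adgre1, 2.96 and 1.92 for Csf1r, 4.02 and 2.11 for Cd163, and 0.53 and 0.23 for Itgam. Among the C1q genes they were 1.62 and 1.46 for C1qa, 1.88 and 1.05 for C1qb and 1.83 and 1.04 for C1qc, and the ranges of the layers overlapped for all genes but Cd68. Markers of other leukocytes were examined as well: 3 of 3 tested B cell markers, 3 of 5 mast cell markers and 2 of 3 dendritic cell markers were higher in stroma. Of the neutrophil markers 1 of 3 tested was higher (Mpo, 0 to 1.70 normalized counts in stroma) and 1 lower (Cxcr2), and Ly6g, which defines neutrophils, was at 0 in both medians. No T and NK cell or eosinophil marker had enough counts to be tested between the layers, and Cd207, which marks Langerhans cells, was at 0 to 1.03 in epithelium and 0 to 0.774 in stroma.

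The other tissues of the wall moved with the layers too. All 12 skeletal muscle, all 4 adipocyte, all 4 blood endothelium and 3 of 4 lymphatic endothelium markers were higher in stroma, as were 3 of 6 fibroblast markers and 2 of 5 smooth muscle markers, and all 8 epithelium markers were lower. The part of these tissues in the levels of the macrophage genes was not tested.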

How the data were processed

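Bulk RNA-Seq of 9 epithelial and 5 stromal samples from 9 mice was re-analysed. The authors isolated mRNA with oligo(dT) beads, aligned reads to GRCm38.p6 with Rsubread, and deposited counts per gene, as whole numbers without normalization; strand and multi-overlap settings are not given in the sources used here. Layer, age and mouse came from the sample labels. Differences were tested by edgeR 4.0.16 (R 4.3.3; TMM, filterByExpr with a minimum count of 10, robust quasi-likelihood fit, Benjamini-Hochberg threshold 0.05). The layers were compared over 14 samples, age within each layer (in epithelium with a covariate for mice whose codes start with 2 letters), and the interaction in 10 samples. The SE is the log2 fold change over the square root of F. DESeq2 1.42.0 and other alternatives are given at the end. Gene positions came from GENCODE M21, in which all 10 members were found. The 10 genes were given at the outset, and all other lists were written with earlier results of these data known. All 10 are named, with list genes and the 5 genes most alike (average log2 CPM of at least 3, pseudocount 0.5). 1 gene of the transcription factor list is not reported here. Samples are separate mice per layer. The 5 mice with both layers pair by their shared code, and deviations of the layers of a mouse correlated by 0.05 to 0.12. The upper value is the same for Y1 and Y3, because each young group here holds only 2 samples, whose deviations mirror each other. These few values therefore say little of how far the layers of a mouse vary together.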

Additional observations from a re-analysis of the deposited data

Results flagged for a closer look

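40 groups of values were tested for a sample far from the others, and 7 were found. Chance alone gives about 1 in 20 independent groups. These groups share samples, and many of the genes move together, so the 7 cannot be set against that rate. The epithelium of OF5 stood above the other samples for Csf1r at 13.4 normalized counts (other epithelial samples 4.39 to 8.60, other aged ones 6.95 to 7.54), for Cd68 at 8.27 (2.08 to 3.75, and 2.76 to 3.11) and for C1qb at 11.7 (3.15 to 5.10, and 3.60 to 4.95), among all 9 epithelial samples and among the 5 aged ones alike. These rest on 39, 24 and 34 counts. The stroma of O3 stood above the other 4 stromal samples for Lyz2, at 175 against 60.8 to 68.7. The groups of 3 aged and 2 young stromal samples were too small for this rule.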

How the results depend on the processing

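In the comparison of the layers, 8 of the 10 genes were called with upper quartile normalization, DESeq2, no filter, ribosomal and mitochondrial genes left out, and code form as a covariate. 7 were called when mice without stroma were left out and with mouse as a replicate block, 6 of the 6 that had at least 10 counts in every sample, and 7 to 8 with each mouse left out. Over all genes, upper quartile normalization called 9503 of 16791, DESeq2 10018, and no filter 14026 of 49574. It was 9492 of 17514 without ribosomal and mitochondrial genes and 9453 of 16791 with code form. Without the mice lacking stroma 9400 of 16713 were called, and 8590 with mouse as a block. With at least 10 counts in every sample 4316 of 6711 were called, and 8395 to 9484 genes with each mouse left out. The sign of Cd68 turned with the mouse block (−0.14) and without the stroma of O3 (−0.30), and it ran from −0.33 to 0.57 with each mouse left out. Of the 186 alternative values of the 10 genes 176 kept their direction and side of the threshold, and 3 turned. In both age comparisons and the interaction no gene of the 10 was called under any alternative but 1 (0 to 0 with each mouse left out): 1 gene (Cd68) passed in stroma without O1 and O3, where 1 aged sample is assumed to vary like the 2 young ones that alone supply the spread and 1663 genes passed, against 0 in the full fit. This alternative and the 2 that left out the stroma of O1 or the stroma of O3 alone were chosen after seeing the data. The fit without OF5 was among those with each mouse left out.

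Signs of uncalled values turned more often. In epithelium, the 5 samples of mice with both layers gave −0.092 for Cd68, −0.17 for Mrc1 and −0.14 for Lyz2, the 4 shallow samples alone gave 0.93 for Cd68, 0.70 for Mrc1, 0.98 for Csf1r, 0.93 for C1qb and 1.64 for C1qa, and the replicate block on the number in the mouse code gave 0.10 for Itgam. In stroma that block gave −0.30 for Adgre1, −0.20 for Cd68, −0.26 for Cd163 and −0.41 for C1qb, and Cd163 was −0.020 with upper quartile normalization and −0.0018 with at least 10 counts in every sample. In the interaction the mouse block gave −0.0031 for C1qa and −0.15 for C1qb, and Itgam was 0.056 with DESeq2, 0.11 without a filter and 0.060 without ribosomal and mitochondrial genes. With each mouse left out, the values ran from −0.091 to 0.54 for Mrc1, −0.086 to 0.29 for Cd68, −0.51 to 0.042 for Cd163, −0.14 to 0.55 for Lyz2, −0.035 to 0.24 for C1qc and −0.47 to 0.55 for Itgam in epithelium. In stroma they ran from −0.051 to 0.44 for Mrc1, −0.16 to 0.30 for Cd163, −0.066 to 0.65 for C1qa, −0.17 to 0.72 for C1qb and −1.25 to 0.22 for Itgam. In the interaction they ran from −0.073 to 1.43 for Adgre1, −0.038 to 0.64 for Csf1r, −0.074 to 0.45 for Cd163, −0.30 to 0.58 for C1qa, −0.20 to 0.63 for C1qb and −0.97 to 0.45 for Itgam. The causes were not tested.

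Samples with the same number in the mouse code deviated together by 0.22 to 0.34 in epithelium and by 0.03 to 0.04 in stroma. In epithelium it was −0.08 to 0.06 after centring on age and code form, which is in the fit. Most groups so centred, and the young stroma, hold only 2 samples, whose deviations mirror each other. These values therefore cannot show whether samples with the same number share more than the number. In the mice with both layers the fits with and without the mouse block called the same number of the 10 genes, 7. Counts over all genes moved more, and the filters changed how many genes were tested. Between the layers 9441 of 16791 genes were called, against 4316 of 6711 with at least 10 counts in every sample. Without a filter it was 14026 of 49574. By age in epithelium 2 became 28 with DESeq2, 36 without a filter, 4 with the number as a block and 0 without the covariate. In stroma 0 became 26 without a filter, 6 with the block, 13 without Y1 and 7 without Y3, and in the interaction 98 without a filter. The median of all genes between the layers shifted by 0.51 without a filter and by −0.19 with the mouse block. Depth limits the 4 shallow epithelial samples, where 3 counts equal 0.707 to 1.25 normalized counts against 0.0872 to 0.175 in the others. Errors cover the spread between mice, with 1 sample per mouse and layer.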
